A study of Mus musculus with 13 samples.

Results

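The Hist1 cluster is the largest group of histone genes in the mouse genome, and here it is described in ChIP-seq peak lists of CTCF and cohesin from embryonic limbs. Its members were the 56 genes on chromosome 13 whose GENCODE M21 symbol starts with Hist1h, of 55413 annotated genes in all; 54 of them were protein-coding and Hist1h2aj and Hist1h2al were pseudogenes. They comprised 6 genes of linker histone H1, 15 of H2A, 15 of H2B, 9 of H3 and 11 of H4. The study took limb buds of mouse embryos at E12.5 and mapped CTCF, RAD21 and SMC1 in wild-type embryos and in embryos carrying deletions at the HoxD locus. The deletions lie on chromosome 2, while the members are on chromosome 13.

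Each of the 11 groups had 1 library, so no value has a replicate and no p-value is given. Wild-type CD1 distal forelimbs gave lists of CTCF, RAD21 and SMC1, and wild-type CD1 proximal forelimbs gave a list of CTCF. Wild-type B6CBAF1 whole forelimbs and hindlimbs gave lists of CTCF and RAD21. Embryos homozygous for delHoxd(8-13)d11lac, delHoxd(1-13)d9lac or delHoxd(attP-rel5)d9lac, obtained from heterozygous crosses, gave CTCF lists of whole forelimbs and hindlimbs. Embryos homozygous for delHoxd(8-13)rXII gave a RAD21 list of whole forelimbs and hindlimbs and a CTCF list of whole forelimbs pooled from 4 embryos. That last CTCF list was made by ChIPmentation, in which the transposase Tn5 adds the adapters to the captured chromatin, so allele, tissue and assay cannot be told apart in it. The strain also differs between the CD1 forelimb parts and the whole limbs, and tissue and strain cannot be told apart. Limb buds hold several cell types, and a site used in few cells cannot be told apart from a weak site used in all.

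Replication-dependent histone genes supply the histones that package newly copied DNA. They are short, have no introns, and give mRNAs that end in a stem-loop in place of a poly(A) tail. H2A and H2B genes often stand head to head and share a promoter region. CTCF binds DNA through zinc fingers at an oriented motif, and the cohesin ring, of which RAD21 and SMC1 are subunits, is often held where CTCF is bound and takes part in forming chromatin loops.

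On mm10 (GRCm38.p6) the members stood in 4 groups and 1 isolated gene. A first group of 19 genes lay at chr13:21715763-21837530, 5 genes lay at chr13:22035164-22043676, 29 genes at chr13:23531050-23764406 and the testis-type pair Hist1h2aa and Hist1h2ba at chr13:23933773-23934851. The pseudogene Hist1h2al lay alone at chr13:51202727-51203065. The median gene body was 527 bp, and 24 of the H2A and H2B members were in head-to-head pairs.

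Most CTCF summits at the members lay near a word inside the H2A coding sequence or near a few motifs outside coding sequence. They are given 5′ to 3′ on the strand of the motif, from mm10, with the 19 bases aligned to the CTCF matrix in capitals; the most frequent base at each position of that matrix, built from the 2000 strongest whole-limb CTCF summits, was TGGCCACCAGGGGGCGCCA. The Hist1h2ae line stands for the word shared by 14 of the 15 H2A members, and the Hist1h2aa line for the member that lacks it; the word reads on the strand opposite to the gene and starts 240 bases after the coding start. The Hist1h4c, Hist1h4j, Hist1h2bj and Hist1h4f lines are sites outside coding sequence, shown to contrast with the word. The match to the matrix is given in bits, and 7.81 bits was the level that 5% of control windows passed.
Hist1h2ae, chr13:23570850-23570868, 12.1 bits: gatggCCAGCTGCAGGTGGCGCGGgatgat
Hist1h2aa, chr13:23934702-23934720, 9.13 bits: gatggCCAGCTGCAGGTGGCGAGGagtaat
Hist1h4j, chr13:21734277-21734295, minus strand, 23.3 bits: ctggaTGGCCACTAGAGGGCACTCttgact
Hist1h4c, chr13:23697559-23697577, minus strand, 20.5 bits: gccatCTGCCACAAGAGGGCGGCGttattt
Hist1h2bj, chr13:22044315-22044333, minus strand, 16.4 bits: ctaaaTGGCCACAAGATGGAGACAtatctt
Hist1h4f, chr13:23551673-23551691, minus strand, 11.6 bits: atataCCAGCTGTAGAGGGCGCTTaaggaa

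CTCF peaks were found at most Hist1 genes in wild-type forelimbs, and cohesin peaks at few. A peak counted for a member when it reached within 1 kb of the annotated transcription start site (TSS). In distal forelimbs 42 of 56 members had a CTCF peak (75%, Wilson 95% interval 62.3 to 84.5), against 25.4% of all 21938 protein-coding genes. In proximal forelimbs it was 38 members (67.9%, background 25.7%) and in whole limbs 29 (51.8%, background 18.0%). RAD21 reached 2 members in distal forelimbs (3.57%, background 5.74%) and 8 in whole limbs (14.3%, background 14.9%), and SMC1 reached 2 in distal forelimbs (3.57%, background 10.1%).

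The share of members with CTCF was thus above the share of all coding genes in each wild-type list, and the share with cohesin was at or below it. Because neighbouring members share peaks, the 42 members in distal forelimbs rested on 30 peaks, and the intervals, which cover counting error only, treat members as if they were independent. Over all 7 CTCF lists 42 members had a peak in at least 1 (background 30.9%), and over the 4 cohesin lists 9 had one (background 17.6%). A CTCF peak and a cohesin peak each occurred in at least 1 list at 7 members, CTCF alone at 35, cohesin alone at 2 and neither at 12.

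**Figure D1:**
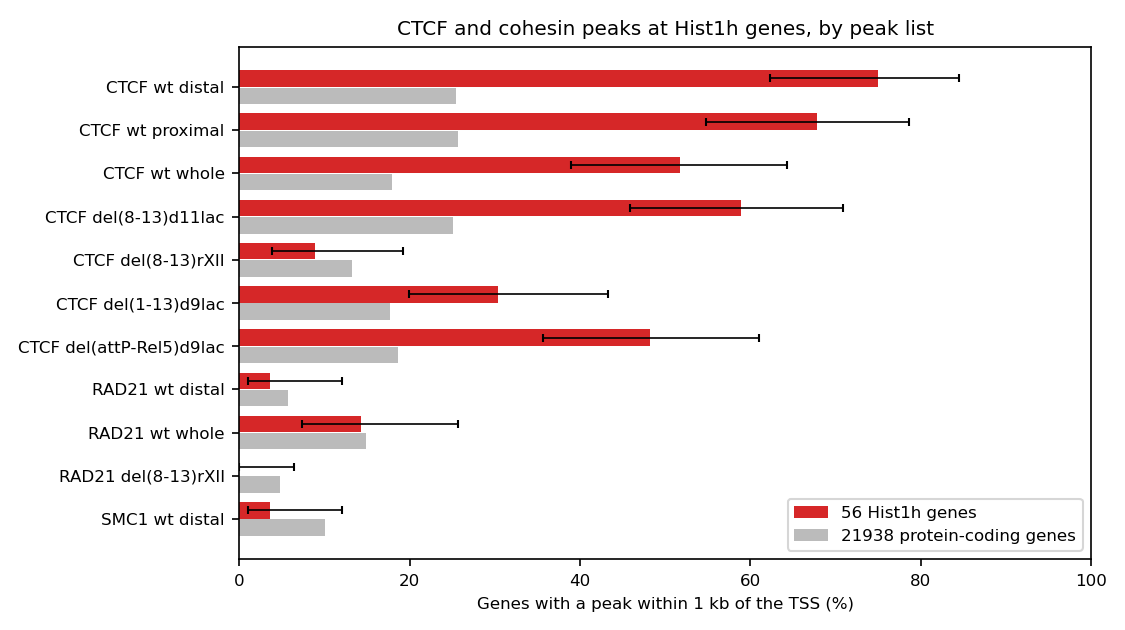
Percent of the 56 Hist1 genes and of all protein-coding genes with a peak within 1 kb of the TSS, in each of the 11 lists, with Wilson 95% intervals on the member bars. CTCF bars of the members stand above those of all genes in 6 of 7 lists, while the cohesin bars do not.

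The excess of CTCF depended on how strong a peak had to be. With a −log10 q of at least 10, 25 members had a CTCF peak in distal forelimbs (44.6%, against 19.8% of coding genes), 35 in proximal forelimbs (62.5%, against 20.5%) and 4 in whole limbs (7.14%, against 12.4%). When every list was cut to its 15927 strongest peaks, the length of the shortest list, 4 members had one in distal forelimbs (7.14%) against 7.94% of coding genes.

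In the deletion alleles the counts of members with CTCF varied widely. There were 33 in delHoxd(8-13)d11lac (58.9%, background 25.1%), 27 in delHoxd(attP-rel5)d9lac (48.2%, background 18.6%), 17 in delHoxd(1-13)d9lac (30.4%, background 17.7%) and 5 in the ChIPmentation list of delHoxd(8-13)rXII (8.93%, background 13.2%). RAD21 of delHoxd(8-13)rXII reached no member (background 4.85%). These lists also differ in the strength of their peaks over the whole genome, and read depth is unknown, so the differences between alleles cannot be told apart from differences between libraries.

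The histone families differed in how many members had CTCF. H2A genes had it in 14 of 15, H3 genes in 9 of 9, H2B genes in 12 of 15 and H4 genes in 6 of 11 over all CTCF lists (background 30.9%). These counts include peaks that lie over a neighbouring gene. Hist1h3h was counted only through a peak over Hist1h2ai, and Hist1h3c only through one over the pseudogene Gm11336. Hist1h4m and Hist1h4n were counted only through peaks over Hist1h2ao and Hist1h2ap. Of the 6 H1 genes, which encode the linker histones that sit outside the nucleosome core, Hist1h1c alone had a peak. The testis-type members Hist1h1t, Hist1h2aa and Hist1h2ba had no peak of either kind in any list. The remaining members without a peak were Hist1h1a, Hist1h1b, Hist1h1d, Hist1h1e, Hist1h2be, Hist1h2bh, Hist1h4b, Hist1h4d and Hist1h4k.

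**Figure D2:**
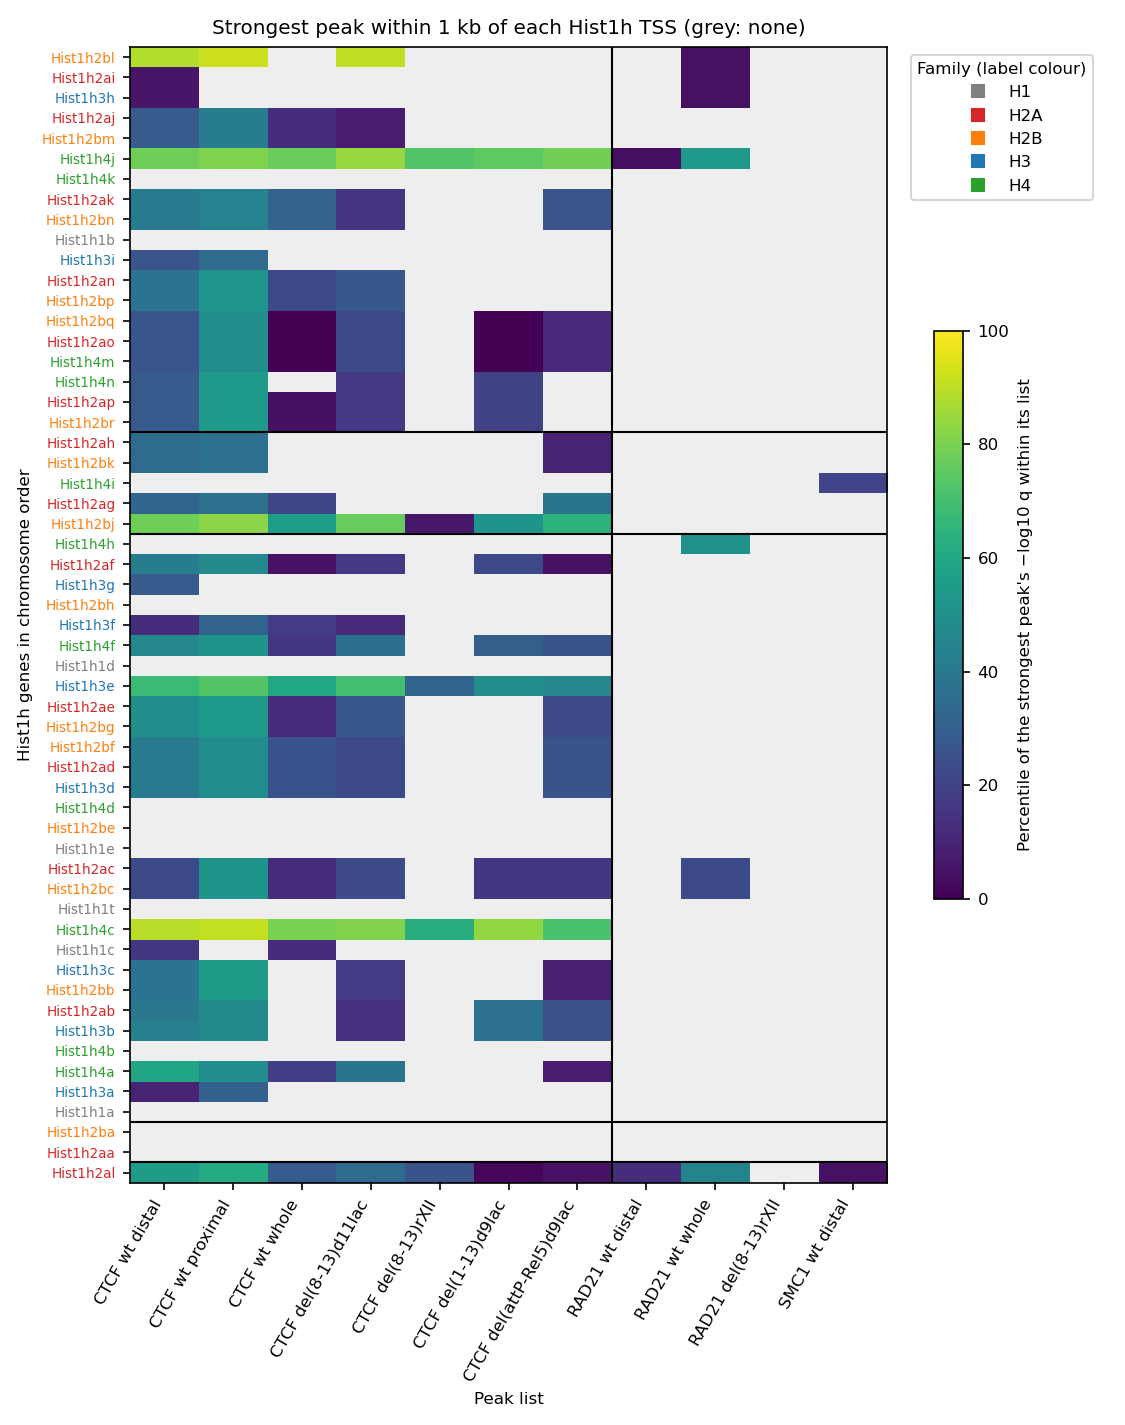
Each row is a Hist1 gene in order along chromosome 13 and each column a list; colour gives the rank of the strongest peak within 1 kb of the TSS as a percentile of its own list, and blank cells had no peak. Most CTCF cells are filled in the wild-type forelimb columns, and few cohesin cells are.

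The H2A members carried their CTCF peaks over the coding sequence itself. The 19-base word printed above was identical in 12 protein-coding H2A members, always 240 bases after the coding start, and in the pseudogenes Hist1h2aj and Hist1h2al, 229 and 225 bases after their annotated start. All 14 had a CTCF peak in distal forelimbs, and the summit lay a median of 21 bp from the centre of the word (0 to 78). In proximal forelimbs 13 had one, at a median of 12 bp (1 to 46), and in whole limbs 11, at a median of 35 bp (18 to 83). In distal forelimbs the summit lay inside the coding sequence of 12 of the 13 protein-coding H2A members; the pseudogenes have none. At all 14 summits over the word in the span, at least 50% of the 50-base words around the summit recur elsewhere in the genome (median 100%), so reads of one copy may not be told from those of another, and how many of these genes are bound cannot be told from the number of peaks.

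Hist1h2aa differed from the word by the substitution C17A, with the word's base first and positions counted from 1 at its 5′ end, and no list had a peak at it. This is 1 gene, and whether the base change has a part in the absence of a peak was not tested.

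The median peak over the word ranked below the middle of its list in every CTCF list. As a percentile of the list, this median ran from 13.26 in whole wild-type limbs to 49.24 in proximal forelimbs. At Hist1h2ae the −log10 q, computed by the authors at each summit, was 23.0 in distal forelimbs, 23.5 in proximal forelimbs, 4.26 in whole limbs, 11.1 in delHoxd(8-13)d11lac and 8.11 in delHoxd(attP-rel5)d9lac, with no peak in the other 2 alleles. At Hist1h2ak it was 14.9, 14.7, 8.73, 6.87 and 9.28 in the same 5 lists. At Hist1h2ai, the weakest, only distal forelimbs had a peak, with a −log10 q of 2.94. At Hist1h2al, alone at its place far from the cluster, all 7 CTCF lists had a peak, with a −log10 q of 30.6, 36.3 and 7.81 in distal, proximal and whole wild-type limbs, 15.4 in delHoxd(8-13)d11lac, 4.00 in delHoxd(8-13)rXII, 1.89 in delHoxd(1-13)d9lac and 3.71 in delHoxd(attP-rel5)d9lac. Values of different lists depend on their depth and are not compared with each other.

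The word was not limited to the members. It occurred 18 times in the genome: 14 times in the cluster, including once in the pseudogene Gm11336, whose peak summit stands at −703 bp from the TSS of Hist1h3c, once in Hist1h2al, once each in Hist2h2aa1 and Hist2h2aa2 on chromosome 3, and once in H2afx on chromosome 9. A CTCF peak covered 18 of the 18 in distal forelimbs, 17 in proximal forelimbs, 14 in whole limbs, 15 in delHoxd(8-13)d11lac, 13 in delHoxd(attP-rel5)d9lac, 7 in delHoxd(1-13)d9lac and 1 in delHoxd(8-13)rXII. RAD21 covered 1 in distal forelimbs and 4 in whole limbs, and SMC1 covered 2. Windows of 1 kb around the TSS held the word at 29 of the 56 members and at 0.146% of all coding genes.

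Of the 29 members whose window held the word, 29 had CTCF in at least 1 list, and of the 27 without it 13 had (background 30.9%). Neighbours share these peaks, and only 15 distal peaks at members lay over the word. Since the sequence around them is repeated, the 29 are not 29 separate observations of CTCF. No H2B coding sequence held a match, and most H2B members with CTCF faced an H2A gene that carries the word: Hist1h2bn faces Hist1h2ak, Hist1h2bp faces Hist1h2an and Hist1h2bg faces Hist1h2ae.

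H3 genes showed a related pattern without a matching motif. A distal CTCF summit fell in the coding sequence of 7 of 9 H3 members, at a median of 143 bases after the coding start (112 to 202). The best match to the matrix in the H3 coding sequences was 4.50 bits at the median, below the level passed by 5% of control windows, and 0 of 9 passed it. The 30 bases that start there, on the strand of the gene, were identical in 7 of the 9 members, and Hist1h3g and Hist1h3e differed from them. Of the 7 with identical bases, Hist1h3h and Hist1h3c had no distal summit in their coding sequence, while Hist1h3g and Hist1h3e each had one, so the exact letters did not separate members with and without a summit. They are shown for Hist1h3i, which had one, with no motif in capitals because none was found.
Hist1h3i, chr13:21783213-21783242, minus strand: tcccggcaccgtggcgctgcgcgagatccg

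H4 genes held weak matches without summits. All 11 H4 coding sequences held a match past the threshold, with a median of 8.15 bits, and no CTCF summit of distal forelimbs fell in any of them. Control windows reached 50 bp to each side, while whole coding sequences were searched, so the 5% level does not carry over to them. Most of these matches were the same letters, 95 bases after the coding start, so they are not 11 separate observations. A match is a description of the letters only. A stricter level, passed by 1% of control windows, was 11.8 bits. The median H2A match passed it (12.1 bits), and no H4 match did (at most 9.15 bits). At that level the match set most H2A coding sequences apart from those of H4. It did not separate the families with and without coding summits, since H3 had such summits with a median match of 4.50 bits.

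Counted over the 54 protein-coding members, a CTCF summit fell in the coding sequence of 20 in distal forelimbs (background 7.55%), 16 in proximal forelimbs (background 7.45%) and 11 in whole limbs (background 5.24%). It was 11 in delHoxd(8-13)d11lac (background 7.20%), 9 in delHoxd(attP-rel5)d9lac (background 5.19%), 5 in delHoxd(1-13)d9lac (background 5.07%) and 0 in delHoxd(8-13)rXII (background 3.69%). RAD21 summits fell in the coding sequence of 0 members in distal forelimbs (background 1.49%), 2 in whole limbs (background 4.16%), SMC1 summits in 0 (background 2.62%) and RAD21 summits of delHoxd(8-13)rXII in 0 (background 1.35%). Of 677 other protein-coding genes of at most 1 kb, 26 had a distal CTCF summit in their coding sequence (3.84%).

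**Figure D3:**
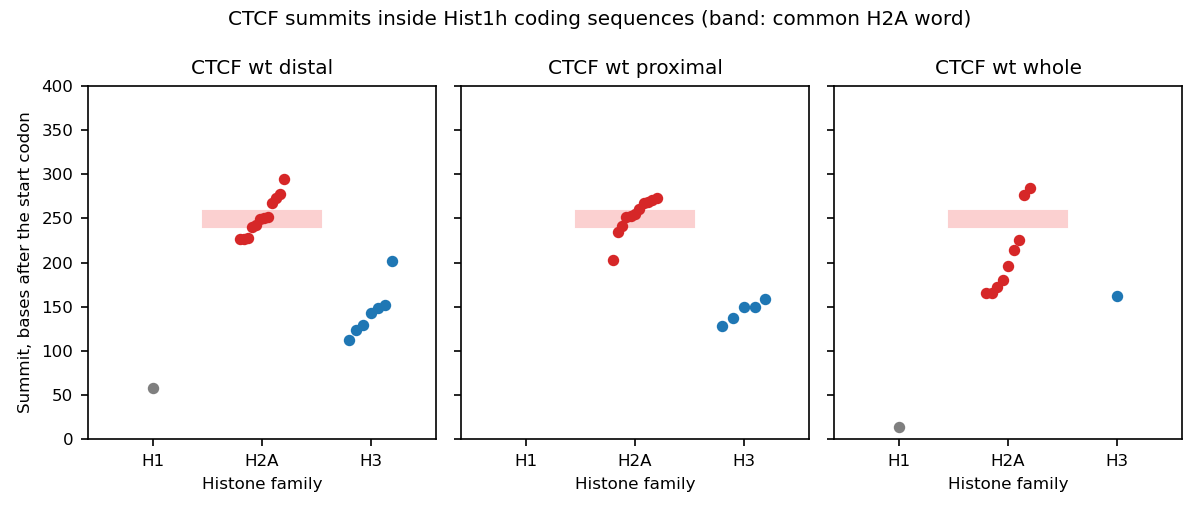
Distance of each CTCF summit from the start codon, in bases along the gene, for H1, H2A and H3 members in the 3 wild-type CTCF lists; the band marks the H2A word, and points are sorted by value. In the forelimb lists H2A summits gather around the band and H3 summits lie nearer the start codon, at a median of 143 bases in distal forelimbs; in whole limbs the H2A summits spread from 166 to 284 bases.

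A small set of strong CTCF sites lay outside coding sequence. Hist1h4c, an H4 gene, had a summit 886 bp after its TSS with a −log10 q of 156 in distal, 162 in proximal and 48.4 in whole limbs, and of 119, 9.42, 49.5 and 47.0 in delHoxd(8-13)d11lac, delHoxd(8-13)rXII, delHoxd(1-13)d9lac and delHoxd(attP-rel5)d9lac. Hist1h4j had a summit at −783 bp, with 99.4, 104, 44.3, 134, 11.9, 37.4 and 59.8 in the same order. Hist1h2bj, an H2B gene, had 99.9, 115, 21.0, 102, 2.19, 17.0 and 37.8; the 2.19 in delHoxd(8-13)rXII is the part of the site that reached the 1 kb window, and the site as a whole had 12.51 in that list. Together with Hist1h3e and the isolated pseudogene Hist1h2al, these were the 5 members with a CTCF peak in every CTCF list (8.93%, background 11.8%).

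Hist1h4f and Hist1h4a had weaker sites of the same kind. At Hist1h4f the summit lay at −19 bp, and the −log10 q was 19.6, 21.2 and 4.67 in distal, proximal and whole wild-type limbs. At Hist1h4a the values were 36.8, 18.4 and 5.36. Neither had a CTCF peak in delHoxd(8-13)rXII. At Hist1h2bl a strong peak, 154 in distal and 173 in proximal forelimbs, had its summit 1218 bp after the TSS and reached into the window; the whole-limb peak at the same site, with 50.3, was narrower and was not counted.

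CTCF at the members was mostly without cohesin. In distal forelimbs, where CTCF, RAD21 and SMC1 come from the same tissue and strain, 2 members had both, 40 CTCF alone and 1 cohesin alone. In whole limbs it was 4, 25 and 4, and in delHoxd(8-13)rXII 0, 5 and 0. Of the 4 with both in whole limbs, Hist1h2ac and Hist1h2bc had a CTCF and a RAD21 peak that did not overlap, while those of Hist1h4j and Hist1h2al did. Over all coding genes with a CTCF peak, 35.8%, 52.5% and 30.9% also had cohesin in these 3 comparisons. Fixation also differed, at 10 minutes for CTCF and 25 for SMC1, and its part in the result was not tested.

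The distal CTCF peaks at members were set beside the genome-wide rate of cohesin overlap at their strength. Of the 15 distal peaks over the word, with a median −log10 q of 13.1 (2.94 to 30.6), 1 overlapped cohesin, the one at Hist1h2al; the genome-wide rate at those strengths gives 0.984. Of the 8 in other coding sequence, with a median of 6.44, 0 did, against 0.294. Of the 7 outside coding sequence, with a median of 99.4 (19.6 to 156), 3 did, at Hist1h2bl, Hist1h4j and Hist1h2bj, against 4.11; the cohesin peaks at Hist1h2bl and Hist1h2bj did not themselves reach within 1 kb of the TSS, so these were not among the 2 members with both. The strongest of the 7, at Hist1h4c (156), overlapped no cohesin peak. Counts this small cannot show whether cohesin departs from that rate, and whether strength has a part in the lack of cohesin was not tested.

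In whole limbs the number lay furthest below that rate outside coding sequence. The counts are small there too, and a difference between the tissues was not tested. There 1 of 11 peaks over the word, 0 of 2 in other coding sequence and 1 of 6 outside it overlapped RAD21, against 1.96, 0.347 and 3.24 from the rate at their strength. Hist1h4c, with the strongest CTCF peak of any member in whole limbs, had no RAD21 peak there.

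**Figure D4:**
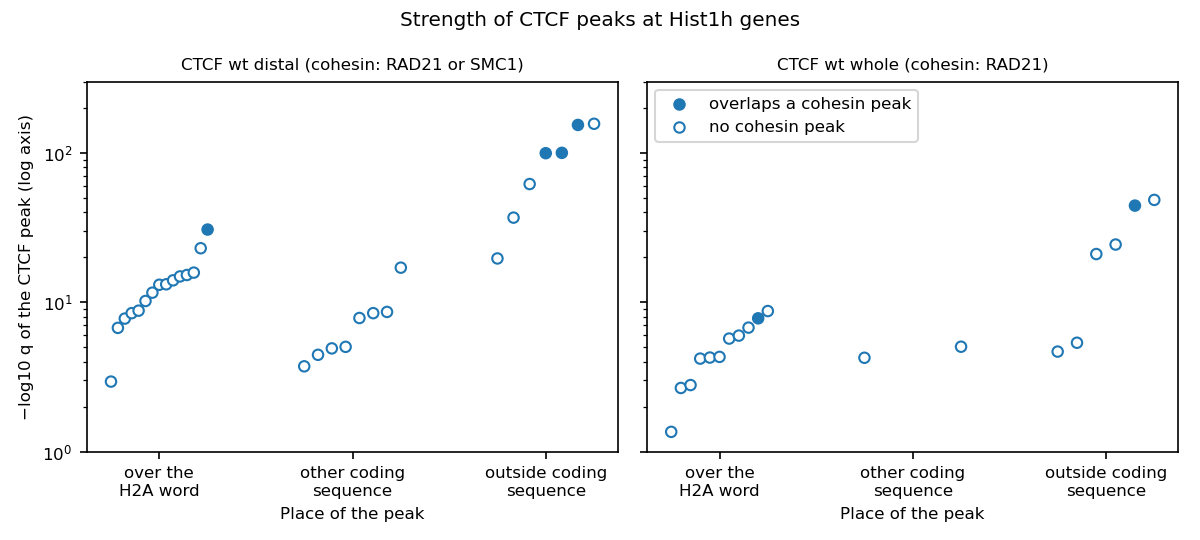
The −log10 q of CTCF peaks at Hist1 genes, on a log axis, by place (over the H2A word, other coding sequence, outside coding sequence) in distal forelimbs and whole limbs; filled points overlap a cohesin peak and points are sorted by value. In distal forelimbs the points outside coding sequence reach 156, those over the word stay at or below 30.6, and most points of both are open.

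The cohesin peaks at members were few enough to name. In distal forelimbs RAD21 was called at Hist1h4j (−log10 q 3.17) and Hist1h2al (5.17), and SMC1 at Hist1h4i (5.11) and Hist1h2al (2.55). In whole limbs RAD21 was called at Hist1h4j (16.3), Hist1h4h (14.4) and Hist1h2al (11.05), with 1 weak peak (2.07) shared by Hist1h2bl, Hist1h2ai and Hist1h3h and another (4.35) shared by Hist1h2ac and Hist1h2bc. Hist1h4i and Hist1h4h had cohesin but no CTCF. Without Hist1h2al, 1 member had RAD21 and 1 had SMC1 in distal forelimbs.

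Outside the members, the span held stronger sites that did carry cohesin. From the first to the last member, leaving out the distant Hist1h2al, with 100 kb on each side (2419 kb), the CTCF lists held 78 distal, 74 proximal and 52 whole-limb peaks. That was 32.2, 30.6 and 21.5 per Mb, against 25.5, 27.03 and 16.0 over the genome. RAD21 stood at 14.5 per Mb in distal forelimbs and 25.2 in whole limbs, against 6.05 and 12.4 over the genome, and SMC1 at 9.51 against 8.51. The gap of 1487 kb before the group of 29 members, which holds 36 vomeronasal receptor genes of the Vmn1r family with no peak at their TSS, had 14.1 distal CTCF peaks per Mb, while the parts that hold members had 101. RAD21 differed less: the gap had 10.1 peaks per Mb in distal forelimbs and 19.5 in whole limbs, and the parts with members had 13.7 and 27.4.

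In distal forelimbs 21 of 78 CTCF peaks of the span overlapped cohesin (26.9%, Wilson 18.3 to 37.7, background 33.2%), and in whole limbs 19 of 52 (36.5%, background 51.5%). In delHoxd(8-13)rXII it was 13 of 32 (40.6%, background 40.0%). With lists of equal length the distal share was 84.2% and the whole-limb share 64.7%, so the shares depend on how deep into the list the CTCF peaks are counted.

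The strongest whole-limb site of the span, at chr13:21974160-21974518 and 61227 bp from the TSS of Hist1h2ah, had a CTCF −log10 q of 110 and overlapped cohesin in all 4 cohesin lists. The next, at chr13:23401544-23402072, had 100 and also overlapped cohesin in all 4. Of the 12 strongest whole-limb sites, only the whole-limb peak at Hist1h4c, in rank 11, reached within 1 kb of a member's TSS. The site at Hist1h4c had no cohesin peak in any list. The site in rank 10, with its whole-limb summit 1211 bp from the TSS of Hist1h2bl, overlapped SMC1 in distal forelimbs and RAD21 in whole limbs. Its wider peaks in distal and proximal forelimbs did reach within 1 kb of that TSS.

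Over the 11 lists the span held 142 separate sites: 30 with CTCF and cohesin, 75 with CTCF alone and 37 with cohesin alone. CTCF was present in all 7 lists at 24 sites, and all 11 lists had a peak at 11. The motif, searched within 50 bp of the summit on both strands, was found at 32 of the 45 consensus CTCF sites (a whole-limb peak that overlaps both forelimb parts), 17 on the plus and 15 on the minus strand; genome-wide it was found at 83.3%. At members it was found at 10 of 17 consensus sites, and at 22 of 28 elsewhere in the span.

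A mirrored pair of these sites stood 6930 bp from the TSS of Hist1h2bq and 6924 bp from that of Hist1h2br, with the motif on opposite strands and the same letters. It is shown because both sites carried CTCF and cohesin in all 11 lists, while Hist1h2bq and Hist1h2br had no cohesin peak. Around both distal summits of the pair 100% of the 50-base words are repeated, so a peak at one site cannot be told apart from reads of the other.
chr13:21803270-21803288 minus strand and chr13:21840654-21840672 plus strand: agcatATGCCACAGGAGGGCGGTCgagttc

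RAD21 without CTCF was common in the span. In distal forelimbs 16 of 35 RAD21 peaks overlapped no CTCF peak of any list (2.69% of all RAD21 peaks of the list did not), in whole limbs 33 of 61 (22.5%) and in delHoxd(8-13)rXII 17 of 31 (4.56%). Of 23 SMC1 peaks, 2 did not (4.82%). Most cohesin sites without CTCF were RAD21 sites next to tRNA genes, which stand between the histone genes and are transcribed by another polymerase. Of the 37 cohesin-alone sites, 35 were in a RAD21 list and 2 had SMC1. The span held 79 of the 403 annotated tRNA genes (19.6%). A tRNA gene lay within 500 bp of 29 of the 37 cohesin-alone sites and of 13 of the 105 sites with CTCF; this comparison was chosen after the values were seen. By list, it was 16 of 16 RAD21 peaks without CTCF in distal forelimbs (background 22.5%), 27 of 33 in whole limbs (background 1.73%), 17 of 17 in delHoxd(8-13)rXII (background 12.2%) and 0 of 2 of SMC1 (background 0.179%). RAD21 was no more frequent at the tRNA genes of the span than at tRNA genes in general: it lay at 31.6% of the tRNA genes of the span and 40.7% of all in distal forelimbs, at 48.1% and 52.9% in whole limbs, and at 34.2% and 39.0% in delHoxd(8-13)rXII. SMC1, mapped in distal forelimbs only, lay at 6.33% of the tRNA genes of the span and 6.95% of all. The strongest cohesin site without CTCF was at chr13:21710443-21711185, with a −log10 q of 40.3 in whole limbs. Only 3 cohesin sites without CTCF lay within 1 kb of a member, Hist1h4i, Hist1h4h and Hist1h2bc, and the one at Hist1h4h lay over a tRNA gene.

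**Figure D5:**
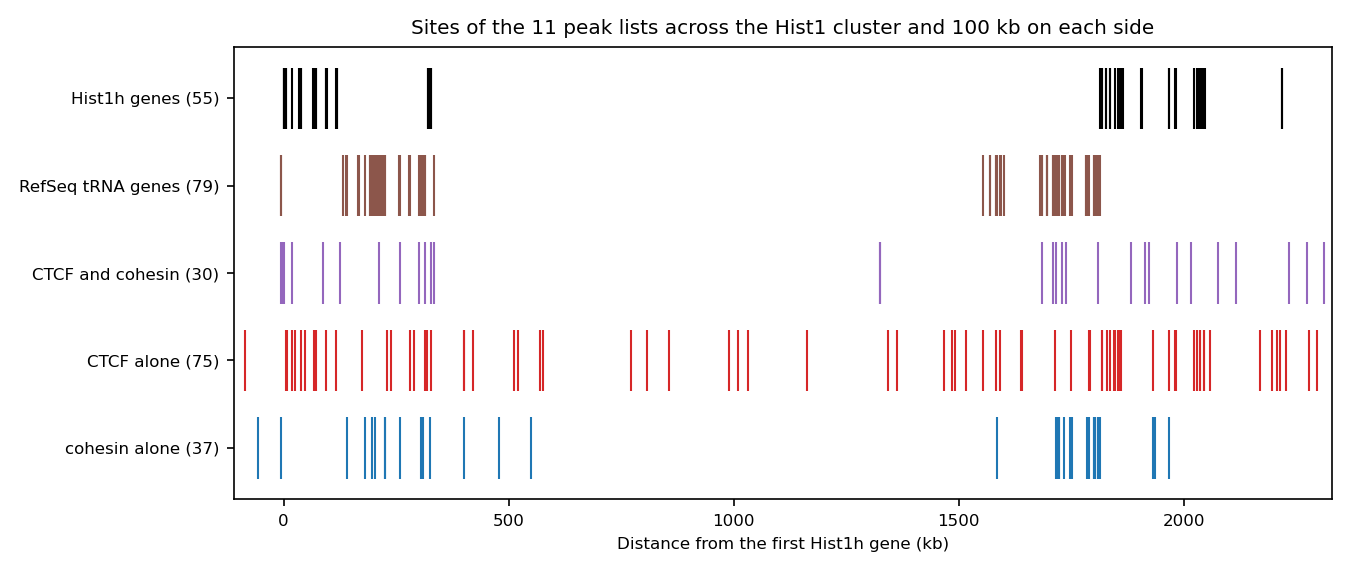
Positions along chromosome 13, in kb from the first Hist1h gene, of 55 Hist1 genes, 79 tRNA genes, and the sites with CTCF and cohesin (30), CTCF alone (75) and cohesin alone (37). The long gap before the group of 29 genes holds 60 of the 142 sites, among them 21 of the 37 with cohesin alone, and 46 of the 79 tRNA genes.

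Consensus CTCF sites of the span were kept to different degrees in the deletion alleles. Of 45, 44 had a peak in delHoxd(8-13)d11lac (98.7% of all consensus sites over the genome did), against 43.9 at the rate of their strength; 37 did in delHoxd(attP-rel5)d9lac (90.4%), against 37.4; 32 in delHoxd(1-13)d9lac (87.2%), against 35.4; and 26 in delHoxd(8-13)rXII (77.0%), against 30.2. At the members, 16, 13, 9 and 4 of 17 were kept, against 16.3, 12.3, 11.2 and 8.28. Of 61 whole-limb RAD21 peaks 28 were kept in delHoxd(8-13)rXII (45.2% over the genome), against 26.8. At the members the count lay furthest below that rate in the ChIPmentation list, and was within 1 site of it in delHoxd(8-13)d11lac and delHoxd(attP-rel5)d9lac.

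The members are close copies of each other, which can limit how reads are placed. At the median member 24.0% of the 50-base words within 1 kb of the TSS recur elsewhere in the genome, against a median of 0% at 500 other protein-coding genes. At Hist1h2ao, Hist1h2ap, Hist1h2bq and Hist1h2br it was 100%. Besides the summits over the H2A word, 6 of the 8 distal summits in other coding sequence had at least 50% such words around them, while the 7 outside coding sequence had at most 2.63%. Over the 50 members with less than 50% such words, only the count of delHoxd(1-13)d9lac moved by over 1.5 times, from 17 to 11. How repeated reads were handled is not given in the sources used here.

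Other histone genes set the members in context. All 14 replication-dependent histone genes outside the cluster (the Hist2h, Hist3h and Hist4h genes) had CTCF in distal forelimbs (background 25.4%). Of these, 5 had cohesin in at least 1 list (35.7%, Wilson 16.3 to 61.2, background 17.6%), an interval that includes the background. Of 9 replication-independent histone genes 3 had distal CTCF (H1fx, H2afv and H2afy2), and the Wilson interval, 12.1 to 64.6%, includes the background. Hist2h4 had CTCF in all 7 CTCF lists. The word differed by G4A in Hist3h2a, whose −log10 q was 38.4 in distal forelimbs, and by G11A in Hist2h2ac, with 6.78; with C2T, C5T and G11A in Hist2h2ab, the match fell to 4.32 bits and a CTCF peak covered it in 1 list, with 1.90. Of 18 genes of the machinery that makes and ends histone mRNAs, 7 had distal CTCF (38.9%, Wilson 20.3 to 61.4), an interval that also includes the background. Lsm11, a part of the U7 particle that cleaves histone mRNA, had a peak in all 11 lists. Npat, which drives histone transcription, had one in the proximal and delHoxd(8-13)d11lac lists of CTCF only. Among the 55 other coding genes of the span, 3 had distal CTCF (5.45%, background 25.4%): Carmil1, Abt1 and Zfp184.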

How the data were processed

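The data were 11 narrowPeak lists of ChIP-seq from mouse limbs at E12.5; the 2 H3K27ac samples were not analysed here. Per the submitters' processing notes cutadapt, Bowtie2 and MACS2 were used with build mm10, with no versions given. The deposited score is 10 times the −log10 q as a whole number, and the deposited fold is the ratio of the summit to its background. The −log10 p and −log10 q were computed by the authors. Read depth is unknown, so strengths were ranked within a list only.

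Peaks with identical bounds were merged and the strongest summit kept. TSS positions come from GENCODE M21, tRNA genes from RefSeq. The span runs from Hist1h2bl to the testis-type pair and leaves out Hist1h2al. Wilson 95% intervals cover counting error. The rate at a strength is the share in 20 equally filled bins of −log10 q. The CTCF matrix of 19 bases was built from the 2000 strongest whole-limb summits, none of them at a member. The scripts (Python 3.11.15, pandas 2.3.3, numpy 2.4.6) were tested on simulated data. The members, lists and tests were chosen with earlier results of these data known. Named genes are all members by the rule, the consensus sites of the span and the fixed lists; the H2A word, the H3 stretch and the tRNA comparison were chosen after seeing the data.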

Additional observations from a re-analysis of the deposited data

How the results depend on the processing

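Over 45 results, 171 of 259 alternative values kept within 1.5 times of the value given, or within its counting interval, and 88 moved; most that moved came from stricter cutoffs. No paired analysis was possible because each group had 1 library. Depth is unknown and limits which weak peaks were called, and a −log10 q of at least 10 is not an equal cutoff across lists.

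With a −log10 q of at least 10, members with CTCF numbered 25 in distal (44.6%, background 19.8%) and 4 in whole limbs (7.14%, background 12.4%). They numbered 12 in delHoxd(8-13)d11lac (21.4%, background 18.7%) and 1 in delHoxd(8-13)rXII (1.79%, background 5.57%). There were 6 in delHoxd(1-13)d9lac (10.7%, background 12.0%) and 5 in delHoxd(attP-rel5)d9lac (8.93%, background 13.6%), both below background at this cutoff. Members with RAD21 numbered 0 in distal (background 2.73%) and 3 in whole limbs (5.36%, background 6.54%), and with SMC1 0 (background 3.89%). Cohesin in any list was left at 3 members, and CTCF with cohesin at 0 members in distal and 1 in whole limbs. CTCF peaks per Mb of the span were 21.1 distal, 20.3 proximal, 9.51 whole, 17.8 in delHoxd(8-13)d11lac, 6.20 in delHoxd(8-13)rXII, 9.51 in delHoxd(1-13)d9lac and 10.7 in delHoxd(attP-rel5)d9lac; RAD21 gave 7.44 distal, 15.7 whole and 5.79 in delHoxd(8-13)rXII, and SMC1 6.20. The whole-limb share of CTCF peaks with cohesin was 60.9%, and kept sites were 100% in delHoxd(8-13)d11lac, 95.7% in delHoxd(1-13)d9lac and 100% in delHoxd(attP-rel5)d9lac.

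With lists of equal length, members with CTCF numbered 4 distal (7.14%, background 7.94%), 4 proximal (7.14%, background 8.22%) and 2 whole (3.57%, background 7.70%). They numbered 4 in delHoxd(8-13)d11lac (7.14%, background 6.93%) and 2 in delHoxd(8-13)rXII (3.57%, background 6.74%). There were 2 in delHoxd(1-13)d9lac (3.57%, background 8.05%), 3 in delHoxd(attP-rel5)d9lac (5.36%, background 7.71%) and 4 in any list. Members with SMC1 numbered 0 (background 5.11%) and with whole-limb RAD21 1 (1.79%, background 5.09%). Members with cohesin in any list numbered 2, and with both CTCF and cohesin 1 in distal and 1 in whole limbs. CTCF per Mb was 7.85 in distal, proximal, delHoxd(8-13)d11lac and delHoxd(attP-rel5)d9lac, 7.03 in whole limbs and delHoxd(1-13)d9lac and 8.68 in delHoxd(8-13)rXII; whole-limb RAD21 was 11.6. Shares with cohesin were 84.2% distal and 64.7% whole, and kept sites 100% in delHoxd(8-13)d11lac and delHoxd(8-13)rXII, 94.1% in the other 2 alleles and 82.1% for RAD21.

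With a TSS window of 500 bp the members numbered 1 in delHoxd(8-13)rXII CTCF (1.79%, background 9.97%) and 10 in delHoxd(1-13)d9lac (17.9%, background 13.5%). There were 1 with distal RAD21 (background 4.32%), 5 with whole-limb RAD21 (8.93%, background 11.9%) and 1 with both in distal forelimbs. With 2 kb they numbered 9 in delHoxd(8-13)rXII CTCF (16.1%, background 17.9%), 6 with SMC1 (10.7%, background 13.1%) and 7 with both in distal forelimbs. Chosen after seeing the data were the next 4 settings. Members with under 50% repeated words numbered 11 in delHoxd(1-13)d9lac. Without Hist1h2al, or with protein-coding members alone, 1 had distal RAD21, 1 SMC1 and 1 both. With the span to Hist1h2al, RAD21 per Mb was 6.87 distal, 13.9 whole and 6.87 in delHoxd(8-13)rXII. With at least 50% of the peak covered the distal share with cohesin was 17.9%, an alternative that was planned.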
